A study of Homo sapiens with 8 samples.

Results

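The 10 genes described here encode regulators of apoptosis of the BCL2 family: the anti-apoptotic *BCL2*, *BCL2L1*, *BCL2L2* and *MCL1*, the effector *BAK1*, and the BH3-only genes *BID*, *BIK*, *BCL2L11*, *BAD* and *BMF*. They were taken by symbol from the 20030 rows of each library. Of the 10 genes, 8 reached 1 FPKM (fragments per kilobase of transcript, scaled to the size of the library) in at least 2 libraries and were among the 10677 genes tested. *BCL2* and *BMF* did not, and are given as values only.

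RNA-seq was performed in HCT-116 cells, a human colorectal cancer cell line, after transient transfection with siRNA. There were 2 libraries with a control siRNA (siNC), 3 with knockdown of *HHEX*, a homeobox transcription factor (siHHEX), 2 with joint knockdown of *YAP1* and the TAZ gene *WWTR1* (siYAP/TAZ), and 1 with knockdown of the TEAD transcription factors that YAP and TAZ bind (siTEAD1/2/3/4). By the study's methods, cells received 1 of 3 siRNAs against *HHEX*, or 1 of 2 pairs of an siYAP and an siTAZ. As these groups have as many libraries as siRNAs or pairs, their libraries probably differ in siRNA and are not repeats of 1 transfection. The labels do not state this. Which library received which siRNA is not stated beyond the shared running numbers, and the labels do not say whether libraries of a group came from separate cultures, so that p-values measure only the spread between these libraries. The sample record of siHHEX 3 is numbered apart from those of the other libraries and gives its knockdown under a different tag. Whether it was prepared together with them is not stated. Values summed to 331663 FPKM at the lowest (siYAP/TAZ 1) and 383423 FPKM at the highest (siHHEX 3), and the spacing of the lowest values gave relative depths of 0.935 to 1.06 times that of siNC 1, the number of reads being unknown.

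Proteins of the BCL2 family control the permeability of the outer mitochondrial membrane. BAK and BAX form the pores that release cytochrome c and thereby activate caspases. The anti-apoptotic members, such as BCL-XL (*BCL2L1*) and MCL1, hold BAK, BAX and the BH3-only proteins in check, and BH3-only proteins either occupy the anti-apoptotic members or activate BAK and BAX directly. Cells differ in the anti-apoptotic members on which they depend, and the balance of these transcripts is one of the measures used to describe that dependence.

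The libraries carried epithelial transcripts and almost none of other cell types. The epithelial keratin *KRT8* was between 897 and 1757 FPKM and *EPCAM* between 116 and 174 FPKM, whereas *VIL1*, an intestinal brush border gene, reached only 0.0335 FPKM. In siYAP/TAZ, the keratins *KRT8*, *KRT18* and *KRT19* were at 54.4%, 42.9% and 77.5% of the siNC mean. *EPCAM* was at 90.7% and *CDH1*, another epithelial gene, at 131% there. The leukocyte genes *PTPRC*, *CD3E* and *CD14* and the endothelial genes *PECAM1* and *CDH5* did not exceed 0.122 FPKM in any library. Of the fibroblast genes, *COL3A1* and *DCN* stayed at or below 0.283 FPKM, and *COL1A1* was between 0.647 and 2.04 FPKM. *HHEX* was at 8.60 and 9.06 FPKM in siNC and at 3.25, 3.54 and 1.85 FPKM in siHHEX, 32.6% of the siNC mean (log2 fold change -1.37, limma adjusted p = 0.00540). *WWTR1* was at 6.80 and 6.72 FPKM in siNC and at 2.64 and 2.58 FPKM in siYAP/TAZ, 38.6% of the siNC mean (log2 fold change -1.10, limma adjusted p = 0.0156, or 0.1001 without siYAP/TAZ 2). *YAP1* was at 6.90 and 8.39 FPKM in siYAP/TAZ, 38.3% of the siNC mean, and did not pass the test there (log2 fold change -1.28, limma adjusted p = 0.0681). It passed it in a fit of the compared groups (limma adjusted p = 0.0108), without siHHEX 2 (limma adjusted p = 0.00796), when corrected for GC content and length (limma adjusted p = 0.0350) and with the replicate number as a block (limma adjusted p = 0.0407). In siTEAD1/2/3/4, *TEAD1* and *TEAD4* were at 48.4% and 26.7% of the siNC mean and *TEAD2* at 72.0%, while *TEAD3* was at 127%. *YAP1* was also low in siHHEX 1 and 3, at 5.77 and 6.93 FPKM against 20.2 and 19.7 FPKM in siNC, and nearer to siNC in siHHEX 2, at 17.4 FPKM. Its siHHEX log2 fold change was -1.07 (limma adjusted p = 0.0429), called in 4 of 15 alternatives that use an adjusted p. Corrected for GC content and length, it was -0.76 (limma adjusted p = 0.161). *TEAD1* was at 40.2% of the siNC mean in siHHEX (log2 fold change -1.25, limma adjusted p = 0.00641, called in 13 of 15). In siYAP/TAZ, *TEAD4* was at 62.7% (log2 fold change -0.63, limma adjusted p = 0.0250, called in 11 of 15).

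Since a guide strand can also act on transcripts that match its seed (bases 2 to 8), the siRNA sites in *YAP1* and *WWTR1* are shown with the match of the seed in capitals, 5′ to 3′ on the strand of the mRNA, together with the single such match of the siRNAs against *HHEX*, *YAP1*, *WWTR1* and the TEAD genes in the 3′ UTR of *MCL1*. The sites were read from GENCODE transcripts of GRCh38.
siYAP-1 site in *YAP1*: gacatcttctgGTCAGAGa
siYAP-2 site in *YAP1*: ctggtcagagaTACTTCTt
siTAZ-1 site in *WWTR1*: acgttgacttaGGAACTTt
siTAZ-2 site in *WWTR1*: aggtacttcctCAATCACa
siYAP-2 seed match in *MCL1*: ttcccagtaTACTTCTtagaaagtc
The siYAP sites lay in the coding sequence of exon 2 of *YAP1*, on the plus strand of chromosome 11 from 102114365 to 102114383 and from 102114373 to 102114391, and overlapped. Those of siTAZ lay in the coding sequence of *WWTR1*, that of siTAZ-1 in exon 7 on the minus strand of chromosome 3 from 149520887 to 149520905 and that of siTAZ-2 across the junction of exons 2 and 3. The match in *MCL1* lay in exon 3 on the minus strand of chromosome 1 from 150576850 to 150576874, with the capitals starting at base 510 of a 3′ UTR of 2817 bases. The word that siYAP-2 matches was present in the 3′ UTR of 13.9% of 10469 tested genes. The 3′ UTRs of *BCL2L1*, *BIK*, *BAD* and *BCL2L11* had no seed match of these siRNAs, whereas that of *BCL2* had 8, of *BMF* 3, and of *BCL2L2*, *BAK1* and *BID* 1 each. For siHHEX-3, with a site of 21 bases, the guide was taken to start opposite base 21 or base 19. Its matches, all in *BCL2*, came from the start at base 19 only, and that at base 21 gave none in the members. A match is a description of the sequence, and its part in any change was not tested.

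In control cells, *BCL2L1* and *MCL1* were by far the most abundant of the 10 transcripts and were present at nearly equal levels. Their siNC means were 76.9 ± 1.43 and 72.3 ± 1.34 FPKM (SD, n = 2), ranks 712 and 758 of all rows. The BH3-only gene *BAD* followed at 32.1 ± 2.10 FPKM, *BAK1* at 22.9 ± 1.85 FPKM, *BIK* at 18.4 ± 0.718 FPKM and *BID* at 16.3 ± 0.923 FPKM. Lower were *BCL2L2* at 8.13 ± 0.502 FPKM and *BCL2L11* at 4.45 ± 0.274 FPKM. The founding member of the family, *BCL2*, was at only 0.249 ± 0.0224 FPKM and *BMF* at 0.332 ± 0.0984 FPKM, and these were the only neighbours in the order of siNC levels whose values overlapped between libraries. *BCL2* did not exceed 0.422 FPKM in any of the 8 libraries, a level at which differences between libraries are not interpreted. Of the summed level of the 4 anti-apoptotic genes in siNC, *BCL2L1* made up 48.8%, *MCL1* 45.9%, *BCL2L2* 5.16% and *BCL2* 0.158%.

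**Figure D1:**
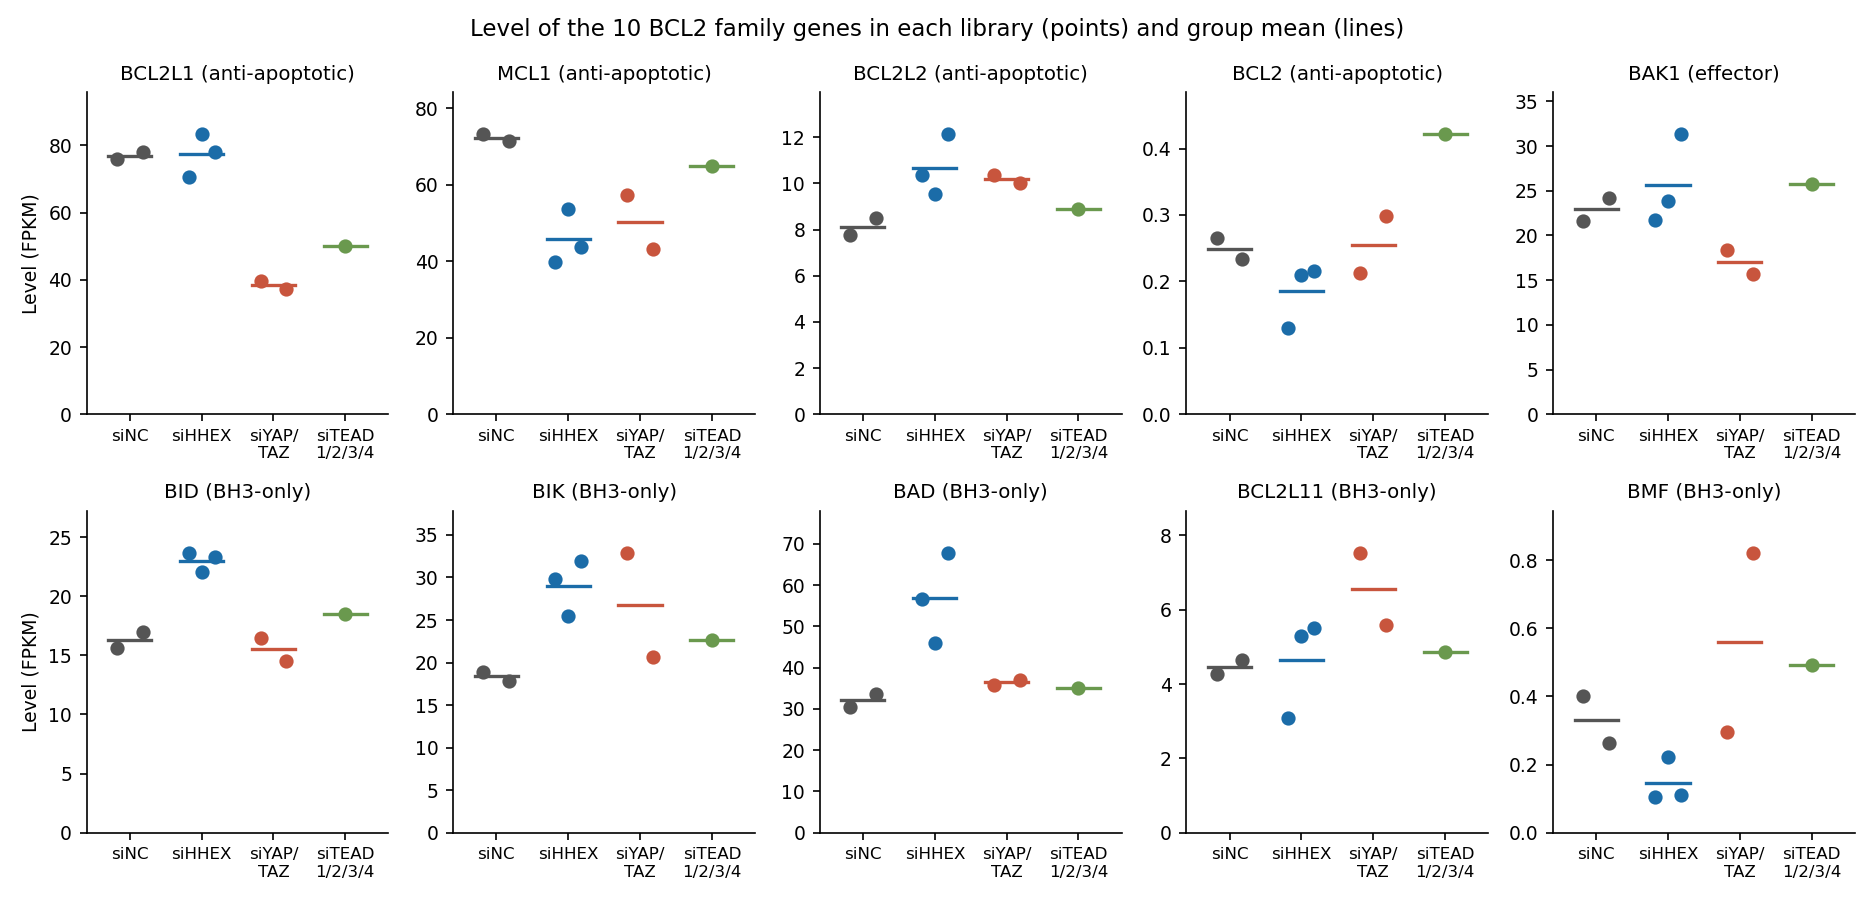
Level of each of the 10 BCL2 family genes in FPKM (vertical axis, from 0, a separate scale for each gene) in the siNC, siHHEX, siYAP/TAZ and siTEAD1/2/3/4 libraries. Points are libraries and lines are group means. *BCL2L1* is low in siYAP/TAZ (39.6 and 37.2 FPKM) and siTEAD1/2/3/4 (50.0 FPKM) and not in siHHEX (70.8 to 83.4 FPKM), while *MCL1* is below siNC in every knockdown library.

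*BCL2L1* fell by about 1 on the log2 scale in siYAP/TAZ and did not change detectably in siHHEX. It encodes BCL-XL, an anti-apoptotic protein that binds BAK, BAX and several BH3-only proteins, and lies on chromosome 20 of GRCh38 from 31664452 to 31723989 on the minus strand. Its level was 75.9 and 77.9 FPKM in the siNC libraries and 39.6 and 37.2 FPKM in siYAP/TAZ. In siHHEX it was at 70.8, 83.4 and 78.1 FPKM, on both sides of siNC, and in siTEAD1/2/3/4 at 50.0 FPKM. Thus both siYAP/TAZ libraries lay below all others and the siTEAD1/2/3/4 library lay between them and siNC. The siYAP/TAZ mean was 49.9% of the siNC mean, and the log2 fold change on the log2(FPKM + 1) scale was -0.98 (standard error, SE, 0.122, limma adjusted p = 0.00546, adjusted after Benjamini and Hochberg across the tested genes). Only 47 of the 10677 tested genes had a more negative siYAP/TAZ change. *BCL2L1* was the 1 member of the 8 tested that passed this test in siYAP/TAZ, where 8.28% of all tested genes passed it, 6.15% higher and 2.13% lower. In siHHEX its log2 fold change was 0.01 with a 95% confidence interval from -0.24 to 0.26 (limma adjusted p = 0.968). The single siTEAD1/2/3/4 library gave a difference of -0.61 from the siNC mean, with no replicate check, and 199 tested genes were lower there. The call in siYAP/TAZ was lost when either siNC library was left out (limma adjusted p = 0.0737 without siNC 1 and 0.0722 without siNC 2), with log2 fold changes of -1.004 and -0.97. The same held for every other call against siNC named here from the uncorrected fit of all 8 libraries, those of *HHEX* and *WWTR1* included, at adjusted p values from limma between 0.0637 and 0.275 and without a change of direction.

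*MCL1* had lower values than siNC in all 6 knockdown libraries, and the fall passed the test in siHHEX. The gene lies on chromosome 1 from 150560895 to 150579738 on the minus strand, and its protein, a short-lived anti-apoptotic member, binds BAK and BIM. It was at 73.2 and 71.3 FPKM in siNC, at 39.8, 53.7 and 43.8 FPKM in siHHEX, at 57.2 and 43.2 FPKM in siYAP/TAZ and at 65.0 FPKM in siTEAD1/2/3/4. The siHHEX and siYAP/TAZ values overlapped with each other and not with siNC. The log2 fold change was -0.66 in siHHEX (SE 0.159, limma adjusted p = 0.0162) and -0.53 in siYAP/TAZ (SE 0.174, limma adjusted p = 0.0885). Values in siHHEX moved with GC content, described below. In a fit that first took the trend on GC content and transcript length off each library (GC-corrected), the calls changed sides, with a log2 fold change of -0.43 in siHHEX (limma adjusted p = 0.0968) and of -0.62 in siYAP/TAZ (limma adjusted p = 0.0374). The log2 fold change of *MCL1* in siYAP/TAZ was -0.33 without siYAP/TAZ 2 (limma adjusted p = 0.430) and -0.73 without siYAP/TAZ 1 (limma adjusted p = 0.0554). In siHHEX, the adjusted p of *MCL1* from limma was 0.133 without siNC 1 and 0.103 without siNC 2.

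Of the remaining anti-apoptotic genes, *BCL2L2* did not pass the test in either knockdown and *BCL2* was not tested. *BCL2L2*, the gene of BCL-W, was at 7.77 and 8.48 FPKM in siNC, between 9.52 and 12.1 FPKM in siHHEX and at 10.4 and 10.01 FPKM in siYAP/TAZ. Every library of both knockdowns was above both siNC libraries, with log2 fold changes of 0.35 (limma adjusted p = 0.0681) in siHHEX and 0.30 (limma adjusted p = 0.224) in siYAP/TAZ. Without siHHEX 2, the siHHEX log2 fold change was 0.42 and passed the test (limma adjusted p = 0.0263), and with equalised library medians it was also 0.42 (limma adjusted p = 0.0432). *BCL2L2* shares exons with a readthrough transcript into its neighbour *PABPN1*, so that its level is uncertain where the counting divided these reads. *BCL2* itself was between 0.130 and 0.298 FPKM in the siHHEX and siYAP/TAZ libraries and at 0.422 FPKM in siTEAD1/2/3/4.

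The summed level of the 4 anti-apoptotic genes was lower than in siNC in every knockdown library. It was 157 and 158 FPKM in siNC, 121, 147 and 134 FPKM in siHHEX, 107 and 90.7 FPKM in siYAP/TAZ and 124 FPKM in siTEAD1/2/3/4. The make-up of this sum shifted in opposite directions. The ratio of *BCL2L1* to *MCL1* was 1.04 and 1.09 in siNC, was 1.78, 1.55 and 1.78 in siHHEX, and 0.691 and 0.862 in siYAP/TAZ and 0.770 in siTEAD1/2/3/4. *BCL2L1* thereby made up 57.8% ± 0.884 (SD, n = 3) of the sum in siHHEX and 38.9% ± 2.97 (SD, n = 2) in siYAP/TAZ. In siHHEX, the log2 fold changes of *BCL2L1* and *MCL1* lay nearer to each other when GC-corrected, at -0.25 and -0.43, than uncorrected, at 0.01 and -0.66. These sums are descriptions and were not tested.

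**Figure D2:**
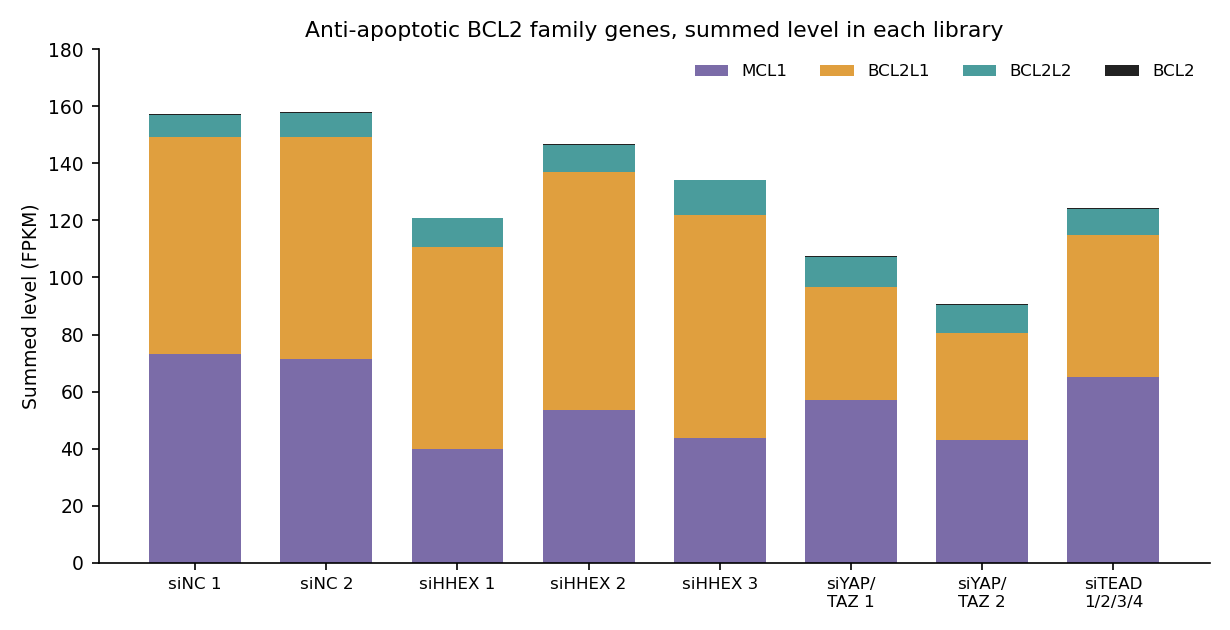
Summed level in FPKM (vertical axis, from 0) of the anti-apoptotic genes *MCL1*, *BCL2L1*, *BCL2L2* and *BCL2* in each of the 8 libraries, stacked by gene. The sum is 157 and 158 FPKM in siNC and lowest in siYAP/TAZ 2, at 90.7 FPKM, and the *BCL2L1* segment shrinks in siYAP/TAZ and siTEAD1/2/3/4 while the *MCL1* segment shrinks most in siHHEX 1.

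The effector *BAK1*, on chromosome 6 from 33572547 to 33580293, did not pass the test against siNC in either knockdown. It was at 21.6 and 24.2 FPKM in siNC, 21.8, 23.8 and 31.4 FPKM in siHHEX, 18.3 and 15.7 FPKM in siYAP/TAZ and 25.8 FPKM in siTEAD1/2/3/4. The siHHEX and siNC values overlapped, and the siYAP/TAZ values were the lowest of all. The log2 fold changes were 0.14 in siHHEX (limma adjusted p = 0.507), a direction that turned without siHHEX 3 (-0.01) and when GC-corrected (-0.19), and -0.41 in siYAP/TAZ (limma adjusted p = 0.178).

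Among the BH3-only genes, *BAD*, *BIK* and *BID* rose in siHHEX and none passed the test in siYAP/TAZ. With *MCL1*, this made 4 of the 8 tested members that changed in siHHEX, 3 higher and 1 lower, where 32.9% of all tested genes changed, 16.0% higher and 16.9% lower. The median log2 fold change of the 4 tested BH3-only genes was 0.55 in siHHEX and 0.32 in siYAP/TAZ, against -0.01 and 0.08 for all tested genes. GC-corrected, these medians were 0.24 and 0.20, against 0.00061 and -0.02.

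*BAD* encodes a BH3-only protein that binds BCL-XL and is held inactive by phosphorylation downstream of AKT. It was at 30.6 and 33.6 FPKM in siNC and at 56.7, 46.0 and 67.9 FPKM in siHHEX, with siHHEX 2 the lowest of the latter and still above siNC. In siYAP/TAZ it was at 35.9 and 37.0 FPKM and in siTEAD1/2/3/4 at 35.0 FPKM. On average it reached 177% of siNC in siHHEX, the highest percentage among the 8 tested members. The log2 fold change in siHHEX was 0.79 (SE 0.157, limma adjusted p = 0.00954), and 272 tested genes had a higher one. GC-corrected, it was 0.23 (limma adjusted p = 0.205). In siYAP/TAZ the log2 fold change was 0.18 (limma adjusted p = 0.532). Without siNC 1 or 2, the siHHEX adjusted p of *BAD* from limma was 0.112 or 0.0772.

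*BID*, which caspase-8 cleaves to link death receptors to mitochondria, was at 15.7 and 17.0 FPKM in siNC and at 23.7, 22.1 and 23.3 FPKM in siHHEX. The 3 siHHEX values lay close together and apart from all others, since *BID* was at 16.5 and 14.5 FPKM in siYAP/TAZ and at 18.5 FPKM in siTEAD1/2/3/4. Its log2 fold change in siHHEX was 0.47 (SE 0.117, limma adjusted p = 0.0176) and nearly the same when GC-corrected, at 0.49 (limma adjusted p = 0.0351). *BID* was the only 1 of the 8 members called in siHHEX when GC-corrected, where 6.76% of 10614 genes were called. Over the 15 alternatives of the analysis that use an adjusted p, its siHHEX log2 fold change stayed between 0.42 and 0.54. Of these, 12 called it, not those without siNC 1 (log2 fold change 0.42) or siNC 2 (0.53) or with the correction and the replicate number as a block together. In siYAP/TAZ the log2 fold change of *BID* was -0.07 (limma adjusted p = 0.762).

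*BIK*, whose protein resides at the endoplasmic reticulum, was at 18.9 and 17.9 FPKM in siNC and at 29.8, 25.4 and 31.9 FPKM in siHHEX. The siYAP/TAZ libraries differed from each other, at 32.9 and 20.7 FPKM, both above siNC, and siTEAD1/2/3/4 was at 22.6 FPKM. The log2 fold change was 0.63 in siHHEX (SE 0.186, limma adjusted p = 0.0316) and 0.49 in siYAP/TAZ (SE 0.204, limma adjusted p = 0.161). The GC-corrected siHHEX value was 0.22 (limma adjusted p = 0.485). The siHHEX call of *BIK* was lost without siHHEX 1 (limma adjusted p = 0.0798), without siHHEX 3 (limma adjusted p = 0.0772), and without siNC 1 or 2 (limma adjusted p = 0.153 or 0.165).

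*BCL2L11*, the gene of BIM, and *BMF* encode BH3-only proteins that bind dynein light chains. *BCL2L11* was at 4.26 and 4.65 FPKM in siNC and 4.87 FPKM in siTEAD1/2/3/4. It was below siNC in siHHEX 1, at 3.08 FPKM, and above it in siHHEX 2 and 3, at 5.30 and 5.52 FPKM, and had a siHHEX log2 fold change of 0.02 with a 95% confidence interval from -0.46 to 0.49. The GC-corrected value was 0.25 (limma adjusted p = 0.476). In siYAP/TAZ *BCL2L11* was at 7.54 and 5.58 FPKM, both above siNC (log2 fold change 0.46, limma adjusted p = 0.234). *BMF* was at 0.401 and 0.262 FPKM in siNC, between 0.104 and 0.224 FPKM in siHHEX and at 0.296 and 0.822 FPKM in siYAP/TAZ, and was not tested. The values are per gene, so that the short and long forms of *BCL2L1*, *MCL1* and *BCL2L11*, some of which have opposite activities, cannot be told apart.

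The summed level of the 5 BH3-only genes was 69.8 and 73.3 FPKM in siNC, 113, 99.0 and 129 FPKM in siHHEX, 93.1 and 78.6 FPKM in siYAP/TAZ and 81.5 FPKM in siTEAD1/2/3/4. All knockdown libraries were above siNC. *BAD*, with a siHHEX log2 fold change of 0.79, or 0.23 GC-corrected, made up 49.7% of this sum in siHHEX. Relative to the anti-apoptotic sum, this was a ratio of 0.444 and 0.464 in siNC, 0.937, 0.675 and 0.958 in siHHEX, 0.867 in both siYAP/TAZ libraries and 0.656 in siTEAD1/2/3/4. In siHHEX the anti-apoptotic sum was at 134 ± 12.9 FPKM (SD, n = 3) and the BH3-only sum at 114 ± 14.8 FPKM, while in siYAP/TAZ they were at 99.0 ± 11.8 and 85.9 ± 10.2 FPKM (SD, n = 2).

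**Figure D3:**
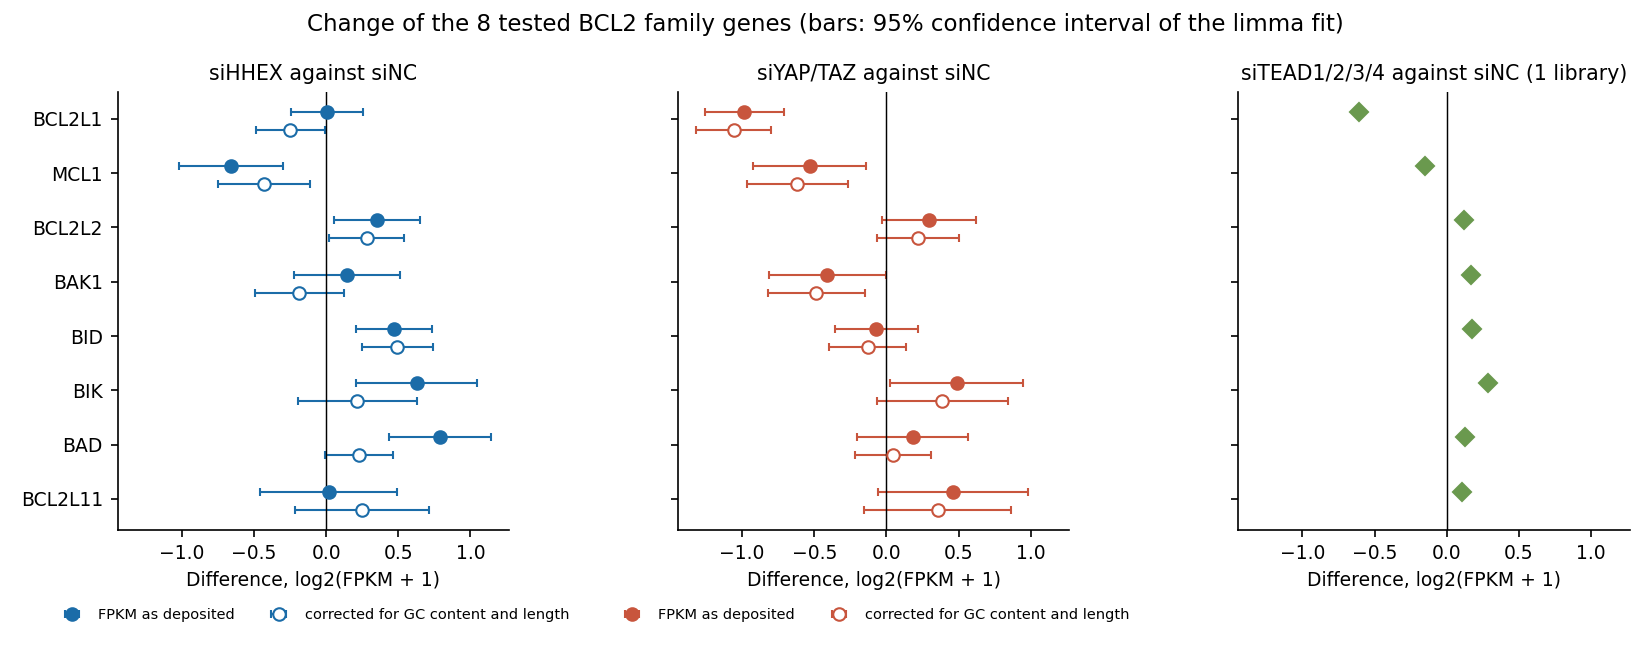
Difference from siNC on the log2(FPKM + 1) scale (horizontal axis) of the 8 tested members in siHHEX, siYAP/TAZ and the single siTEAD1/2/3/4 library. Filled points are the deposited values and open points those corrected for GC content and transcript length, bars are 95% confidence intervals of the limma fit, and diamonds have no error. *BCL2L1* stands apart at -0.98 in siYAP/TAZ, and *BAD* moves from 0.79 to 0.23 in siHHEX with the correction.

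Groups that do not overlap were common among all genes. Of the 8 tested members, 5 did not overlap with siNC in siHHEX and 7 in siYAP/TAZ, where 66.9% and 67.7% of all tested genes did not. In siHHEX, 4 of the members lay above both siNC libraries and 1 below in every library, as did 33.1% and 33.8% of the tested genes. In siYAP/TAZ, 4 lay above and 3 below, as did 42.9% and 24.8%. By the criterion used in the study, more than 2-fold and p under 0.05, taken here as the unadjusted p, 0 of the 8 members were called in either knockdown or in their direct contrast, against 1.63% of the tested genes in siHHEX, 1.57% in siYAP/TAZ and 1.52% in the contrast. *BCL2L1* in siYAP/TAZ, at -0.98 on the log2(FPKM + 1) scale, was just short of this fold change, whereas its mean in FPKM was 49.9% of siNC. In siTEAD1/2/3/4, 0 of the 8 members were past 2-fold and 0 past 2-fold lower, against 0.890% and 0.478% of the tested genes, and apart from *BCL2L1*, the members lay between -0.15 (*MCL1*) and 0.29 (*BIK*).

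A direct contrast of siHHEX with siYAP/TAZ, in which the siNC libraries entered the estimate of the spread and not the difference, asked whether the members differed between the knockdowns. *BCL2L1* was higher in siHHEX by 0.99 on the log2 scale (SE 0.112, limma adjusted p = 0.00282), and only 27 tested genes had a larger difference in this direction. *BAD* was higher by 0.61 (limma adjusted p = 0.0166), *BAK1* by 0.55 (limma adjusted p = 0.0268) and *BID* by 0.54 (limma adjusted p = 0.00929). Thus 4 of the 8 members were higher in siHHEX and 0 lower, where 39.3% of all tested genes were called, 13.5% higher and 25.9% lower. These 4 lay above both siYAP/TAZ libraries in every siHHEX library, as did 23.0% of the tested genes, and with *BCL2L11*, which lay below, 5 of the 8 did not overlap, against 60.8%. For *MCL1* the difference was -0.13, with a 95% confidence interval from -0.49 to 0.23, and turned to 0.05 when the library medians were equalised. For *BCL2L2* it was 0.05 (interval -0.24 to 0.35), for *BIK* 0.14 (interval -0.28 to 0.56) and for *BCL2L11* -0.44 (interval -0.92 to 0.03), none of which passed the test. The difference for *BCL2L11* was -0.11 when GC-corrected (limma adjusted p = 0.773). In the GC-corrected fit, *BCL2L1* (0.81, limma adjusted p = 0.0109) and *BID* (0.62, limma adjusted p = 0.0172) were called, 2 of the 8 members, where 8.88% of genes were called. *BAD* (0.18) and *BAK1* (0.30) were not. Without siYAP/TAZ 1, *BAD* (limma adjusted p = 0.0692) and *BAK1* (limma adjusted p = 0.0512) were lost, and without siYAP/TAZ 2, *BAD*, *BAK1* and *BID* (limma adjusted p = 0.0799, 0.164 and 0.0699). *BCL2L1* was called in this contrast in all 15 alternatives run that use an adjusted p, at differences between 0.81 and 1.17.

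The members differed in GC content, with which the siHHEX values of all genes moved. The canonical transcript of *BAD* had 65.8% GC, above that of 96.7% of the tested genes, and that of *MCL1* had 45.1%. Between them lay *BAK1* at 58.6%, *BCL2L1* at 56.6%, *BIK* at 55.9%, *BCL2L2* at 51.9%, *BID* at 48.0% and *BCL2L11* at 45.5%. Across 10614 genes, which are not independent replicates, Spearman's coefficient between GC content and the difference from the siNC mean was 0.679, 0.599 and 0.755 in siHHEX 1, 2 and 3. It was 0.0602 and -0.0519 in siYAP/TAZ 1 and 2, 0.298 in siTEAD1/2/3/4 and 0.212 between the siNC libraries. In siHHEX, *BAD* and *BIK* were on the GC-rich side and *MCL1* on the GC-poor side in the direction of this trend. *BID* did not follow it, since it was among the GC-poorer members and rose. Other members also departed from it. *BAK1* and *BCL2L1*, richer in GC than *BIK*, had siHHEX log2 fold changes of only 0.14 and 0.01. *BCL2L11*, nearly as poor in GC as *MCL1*, was at 0.02. *BCL2L1*, at 56.6% GC, had a siHHEX log2 fold change of -0.25 when GC-corrected (95% confidence interval from -0.49 to -0.01, limma adjusted p = 0.173). In siYAP/TAZ, the log2 fold change of *BCL2L1* was -1.06 when GC-corrected (limma adjusted p = 0.00343). It was then called with *MCL1*, 2 of the 8 members, where 11.5% of genes were called. The correction takes off any trend on GC content, whether it arose in the libraries or in the cells, which cannot be told apart here.

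**Figure D4:**
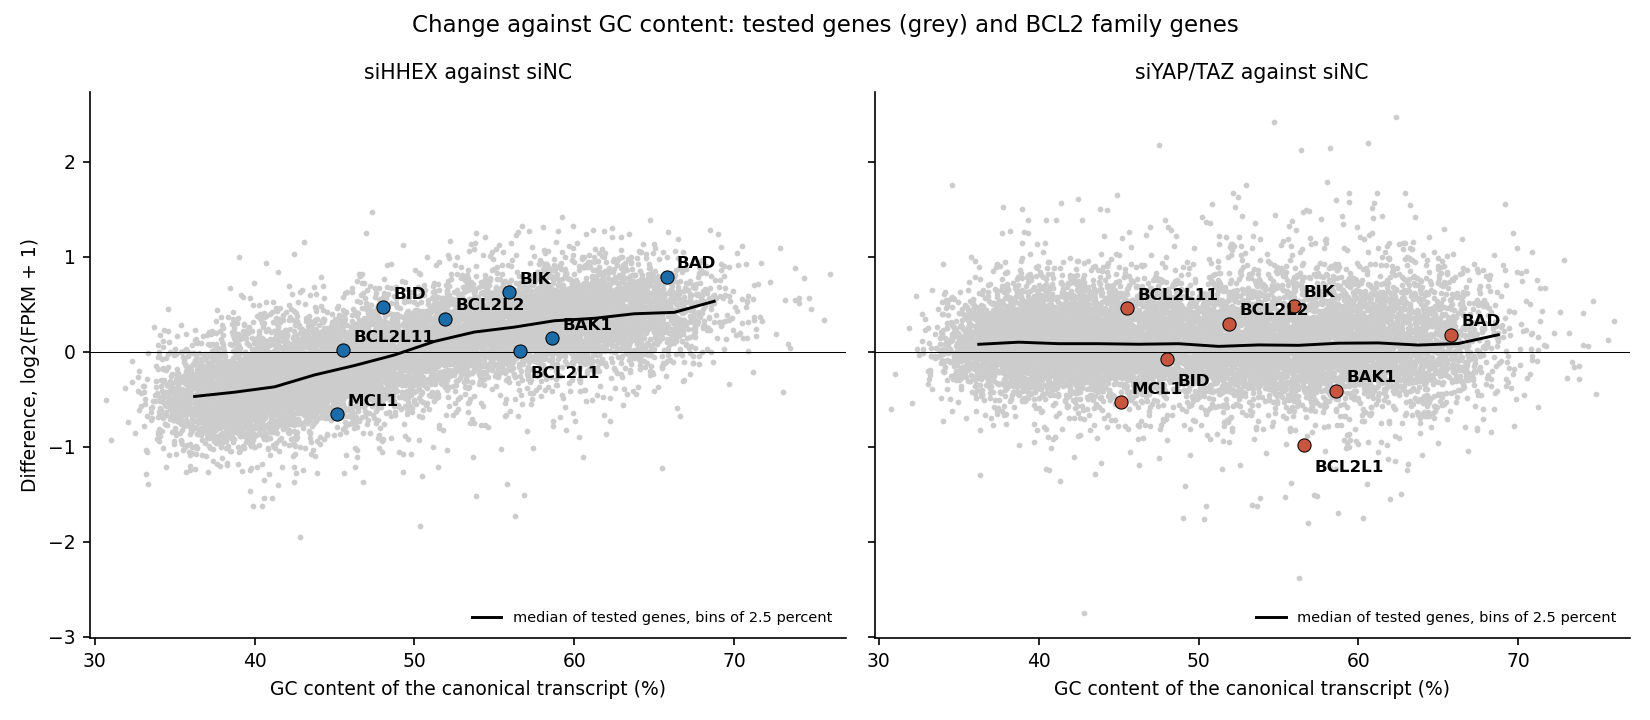
Difference from siNC on the log2(FPKM + 1) scale (vertical axis) against the GC content of the canonical transcript in percent (horizontal axis) for siHHEX (left) and siYAP/TAZ (right). Grey points are the tested genes, black lines their medians in bins of GC content, and coloured points the 8 tested BCL2 family members. In siHHEX the grey points rise with GC content, with *BAD* at 65.8% GC and 0.79 and *MCL1* at 45.1% GC and -0.66, while in siYAP/TAZ there is no such rise and *BCL2L1* lies far below the median line.

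Other genes of the BCL2 family also changed, among them those of PUMA and NOXA. Of 13 such genes listed, 8 were tested. In siHHEX 3 rose (*BBC3*, *BOK* and *BCL2L13*) and 2 fell (*PMAIP1* and *BNIP3L*), and in siYAP/TAZ 1 rose (*BBC3*) and 1 fell (*PMAIP1*), where 32.9% and 8.28% of all tested genes were called. GC-corrected, 1 was higher and 0 lower in siHHEX and 1 higher and 2 lower in siYAP/TAZ, where 6.76% and 11.5% of genes were called. These shares are the background of the lists below as well. The median log2 fold changes were 0.19 and 0.10, or -0.062 and 0.0040 when GC-corrected. *BBC3* encodes the BH3-only protein PUMA, a p53 target. It was at 4.33 and 4.08 FPKM in siNC, 6.32, 9.65 and 10.6 FPKM in siHHEX, 10.3 and 12.6 FPKM in siYAP/TAZ and 9.08 FPKM in siTEAD1/2/3/4, so that all 6 knockdown libraries were above siNC. In siHHEX it changed by 0.89 on the log2 scale (limma adjusted p = 0.0122), or 0.45 GC-corrected (limma adjusted p = 0.131), and in siYAP/TAZ by 1.25 (limma adjusted p = 0.0148), or 1.13 GC-corrected (limma adjusted p = 0.0113). *PMAIP1* encodes NOXA, a BH3-only protein that binds MCL1, and moved the other way. Its values were 41.8 and 40.1 FPKM in siNC, 18.3, 25.9 and 26.0 FPKM in siHHEX, 25.2 and 25.6 FPKM in siYAP/TAZ and 23.9 FPKM in siTEAD1/2/3/4. The siHHEX change on the log2 scale was -0.80 (limma adjusted p = 0.00937), or -0.42 GC-corrected (limma adjusted p = 0.130), and that in siYAP/TAZ was -0.67 (limma adjusted p = 0.0469). The siYAP/TAZ call of *BBC3* was lost without siYAP/TAZ 2 (limma adjusted p = 0.106), and that of *PMAIP1* without siYAP/TAZ 1 or 2 (limma adjusted p = 0.108 or 0.189) and with a pseudocount of 0.1 (limma adjusted p = 0.0502). The comparisons share the siNC libraries.

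The effector *BAX* was at 45.2 and 47.4 FPKM in siNC and between 45.6 and 59.1 FPKM in the knockdown libraries, above *BAK1* in each, and passed no test against siNC (log2 fold changes 0.18 in siHHEX, -0.37 GC-corrected, and 0.22 in siYAP/TAZ). The effector-like *BOK* rose by 0.61 in siHHEX (limma adjusted p = 0.0247), or 0.23 GC-corrected, and was not called without siHHEX 3 (limma adjusted p = 0.0596). The mitochondrial *BCL2L13* rose by 0.47 (limma adjusted p = 0.0176) and was also called when GC-corrected, at 0.63 (limma adjusted p = 0.0189). It was not called with the correction and the replicate block together (0.62, limma adjusted p = 0.0559). *BNIP3L*, a mitophagy receptor, fell by 0.80 in siHHEX (limma adjusted p = 0.0405), or 0.34 GC-corrected, and lost its call without any 1 of the siHHEX libraries (adjusted p between 0.0602 and 0.0886 from limma) and with equalised library medians (-0.73, limma adjusted p = 0.0518). Its siYAP/TAZ values of 5.71 and 12.8 FPKM lay far apart, and without the former its log2 fold change there was 1.13 (limma adjusted p = 0.0182). *BCL2L12* and *BNIP3* were called against siNC in neither knockdown, with log2 fold changes of 0.19 and -0.04 in siHHEX and -0.37 and -0.01 in siYAP/TAZ. GC-corrected, these were -0.30 and 0.18 in siHHEX, and *BCL2L12* was called in siYAP/TAZ, at -0.48 (limma adjusted p = 0.0291). *BCL2L10* was listed at 0 in all 8 libraries, and *BCL2A1* and *BCL2L14* in all but siYAP/TAZ 2. *HRK*, between 0.413 and 1.08 FPKM, and *BCL2L15* were below the filter.

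**Figure D5:**
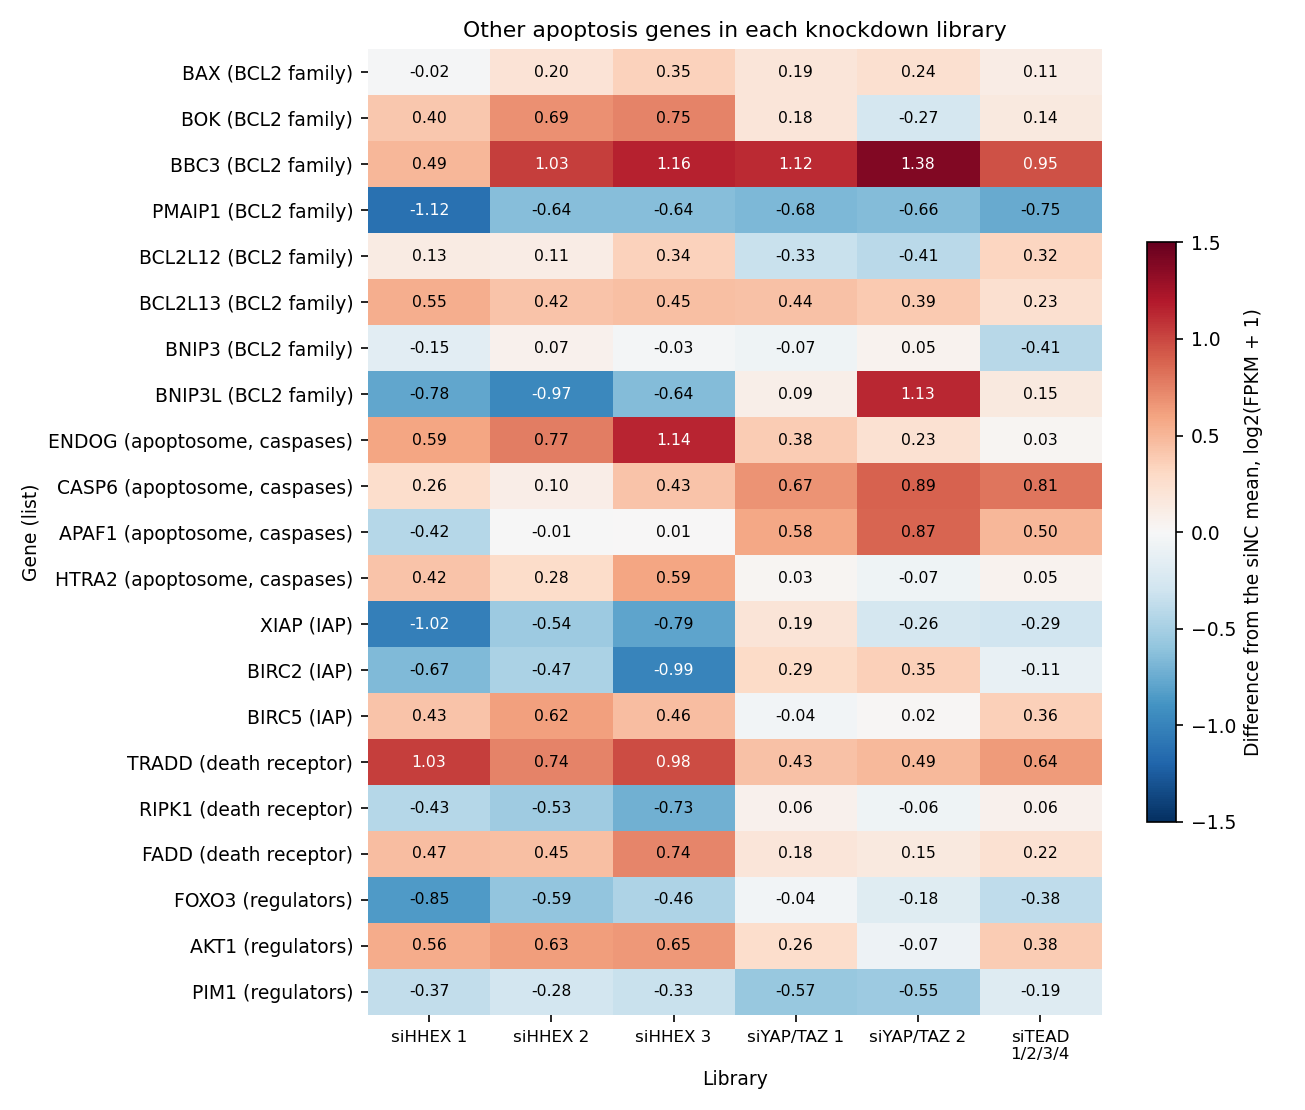
Difference from the siNC mean on the log2(FPKM + 1) scale (colour and printed values, red higher and blue lower) of other BCL2 family genes and of called genes of the apoptosis pathway (rows) in each of the 6 knockdown libraries (columns). *BBC3* is higher (0.49 to 1.38) and *PMAIP1* lower (-1.12 to -0.64) in all 6, and *XIAP* and *BIRC2* are lower in the 3 siHHEX libraries.

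Downstream of the mitochondria, 11 genes of the apoptosome and of the caspases were described, all tested. *ENDOG* and *HTRA2*, which encode mitochondrial proteins released in apoptosis, rose in siHHEX (log2 fold changes 0.83 and 0.43, limma adjusted p = 0.00961 and 0.0348, or 0.30 and 0.09 and not called when GC-corrected). Called lower were 0 of the 11, and the median was -0.07. *CYCS*, the gene of cytochrome c, was named after its values were seen and was not called. It was at 55.9 and 52.2 FPKM in siNC and at 31.0, 48.9 and 16.9 FPKM in siHHEX. Its log2 fold change there was -0.85 (limma adjusted p = 0.0729), or -0.45 when GC-corrected (limma adjusted p = 0.336). GC-corrected, 0 of the 11 were called and the median was 0.05. The call of *HTRA2* was lost without siHHEX 1 or 3 (limma adjusted p = 0.0730 or 0.0680). In siYAP/TAZ, *CASP6* (0.78, limma adjusted p = 0.0218) and *APAF1*, the scaffold of the apoptosome (0.73, limma adjusted p = 0.0433), rose, and the median of the list was 0.18, or 0.12 when GC-corrected. The uncorrected calls of *CASP6* and *APAF1* were lost without siYAP/TAZ 2 (limma adjusted p = 0.136 and 0.233), and that of *APAF1* also with a pseudocount of 0.1 and with equalised library medians (limma adjusted p = 0.0525 and 0.0619). GC-corrected, *CASP6* was at 0.71 (limma adjusted p = 0.0261) and *APAF1* at 0.59 (limma adjusted p = 0.0632), and *VDAC1* (-0.35, limma adjusted p = 0.0427) and *VDAC2* (-0.40, limma adjusted p = 0.0397), channels of the outer mitochondrial membrane that were named after their values were seen, were called lower.

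Of the inhibitor of apoptosis genes, 4 of 7 were tested. In siHHEX, *XIAP* (-0.79, limma adjusted p = 0.0143) and *BIRC2* (-0.71, limma adjusted p = 0.0127), which restrain caspases and modify signalling at death receptors, fell. *BIRC5*, the gene of survivin, which also acts in mitosis, rose by 0.50 (limma adjusted p = 0.0111), or 0.42 GC-corrected (limma adjusted p = 0.0394). Its call was lost with the correction and the replicate block together (0.45, limma adjusted p = 0.0743). The corrected values of *XIAP* and *BIRC2* were -0.32 and -0.24 and did not pass the test. The list's median was -0.52 in siHHEX and 0.15 in siYAP/TAZ, where 0 of the 4 were called, and -0.13 and 0.09 when GC-corrected, where 1 and 0 of the 4 were called. Of the death receptor pathway, 9 of 11 genes were tested. The adaptors *TRADD* (0.92, limma adjusted p = 0.00414) and *FADD* (0.55, limma adjusted p = 0.0155) rose and the kinase gene *RIPK1* (-0.56, limma adjusted p = 0.0155) fell in siHHEX, with a list median of -0.01, or 0.09 when GC-corrected. In siYAP/TAZ 0 of the 9 were called, with a median of 0.08, or 0.0056 when GC-corrected. *TRADD* and *RIPK1* were also called in siHHEX when GC-corrected, at 0.45 (limma adjusted p = 0.0459) and -0.50 (limma adjusted p = 0.0446), and *FADD* was not, at 0.20 (limma adjusted p = 0.241). With the replicate number as a block as well, *TRADD* and *RIPK1* lost these calls (limma adjusted p = 0.0872 and 0.111).

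Genes of proteins that act on the BCL2 family by transcription, phosphorylation or degradation numbered 13, all tested. In siHHEX *AKT1*, whose kinase phosphorylates BAD, rose by 0.61 (limma adjusted p = 0.0106), and *FOXO3*, a transcription factor that activates *BCL2L11*, fell by 0.63 (limma adjusted p = 0.0138). GC-corrected, they were at 0.29 (limma adjusted p = 0.150) and -0.54 (limma adjusted p = 0.0464). The corrected call of *FOXO3* was lost with the replicate block as well (-0.64, limma adjusted p = 0.0608). In siYAP/TAZ 1 gene passed the test, *PIM1*, another kinase of BAD, which was at 8.31 and 8.06 FPKM in siNC and at 5.17 and 5.29 FPKM in siYAP/TAZ (log2 fold change -0.56, limma adjusted p = 0.0313, or 0.0715 and 0.134 without siYAP/TAZ 1 and 2). *PIM1* was also called in both knockdowns when GC-corrected, at -0.57 in siHHEX (limma adjusted p = 0.0213, against -0.33 and 0.0542 uncorrected) and -0.63 in siYAP/TAZ (limma adjusted p = 0.0144), and so was *PIM3*, named after its values were seen, in siYAP/TAZ (-0.65, limma adjusted p = 0.0331). The medians of the list were 0.09 in both knockdowns, or 0.07 in siHHEX and -0.0016 in siYAP/TAZ when GC-corrected, where 2 of the 13 were called in each, all lower.

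The core of the motif bound by TEAD factors, GGAATG or its reverse complement CATTCC, was searched on both strands in RefSeq promoter windows, from 250 bases before to 50 after each start. The 7 members with an entry had 14 windows, of which 0 held the motif, as against 14.0% of all 35116 windows. This says only that these letters were not in these windows.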

How the data were processed

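RNA of 8 HCT-116 libraries was sequenced by the authors on an Illumina HiSeq instrument, and 1 FPKM value per gene and library was deposited, the unit of every value used here. The submitters' processing notes name Trimmomatic 0.36, HISAT2 2.0.5, Cufflinks 2.2.1 and HTSeq 0.9.1, without roles; the genome build, annotation and strand setting are not given in the sources used here. Groups came from the labels, and the criterion of the study was a change of over 2-fold with p under 0.05.

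Genes reaching 1 FPKM in 2 or more libraries (10677) were tested on log2(FPKM + 1), with a pseudocount of 1, in limma 3.58.1 (R 4.3.3) with a variance trend, in 1 fit of 8 libraries and 4 groups. Fold changes on this scale understate the change of low genes. P-values were two-sided and Benjamini-Hochberg adjusted over all tested genes, with calls at 0.05. No test was made for the single siTEAD1/2/3/4 library. Relative depth came from the spacing of values between 0.0001 and 0.03 FPKM. GC content, length and 3′ UTRs came from GENCODE canonical transcripts (GRCh38), matched for 18724 rows by symbol and 551 by an older symbol, and promoters from RefSeq. The GC-corrected values were made by taking off each library a trend on GC content and log length (natural splines, 4 degrees of freedom each) for the 10614 genes (99.4%) with both. The script was tested on simulated data in which 200 genes were changed. Simulated log2 changes of 0.5 were called in 0% of these genes in siHHEX and in siYAP/TAZ. Changes of 1 were called in 75.5% and 65.5%, and changes of 2 in 99% and 97%. A missing call therefore does not exclude a change of such a size.

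Alternatives were a pseudocount of 0.1, no filter (16276 genes), separate fits of the compared groups, a replicate block, median scaling and no variance trend. Others were each library of the compared groups left out (7 of the 8), the correction alone and with the block, and the study's criterion. With the block, siHHEX 3 added nothing to the siHHEX and direct estimates, as no other library has its number. The block and the leaving out of siHHEX 3 are therefore not separate checks of these log2 fold changes. Named genes were all members, the tested other family genes, up to 4 called genes of each other list by largest change in siHHEX or siYAP/TAZ, and the knockdown targets. The members, lists and this rule were chosen with earlier results of these data known. 1 gene of the caspase list is not reported here and was left out of that list. Other assays of the study were not used here.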

Additional observations from a re-analysis of the deposited data

Results flagged for a closer look

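The effects of the knockdowns differed for 4 members by the direct contrast of siHHEX with siYAP/TAZ, the test of that difference. *BCL2L1* was higher in siHHEX by 0.99 on the log2 scale, with 70.8 to 83.4 FPKM in the 3 siHHEX libraries and 39.6 and 37.2 FPKM in siYAP/TAZ. *BAK1* was higher by 0.55, with 21.8 to 31.4 FPKM against 18.3 and 15.7 FPKM. *BID* was higher by 0.54, with 22.1 to 23.7 FPKM against 16.5 and 14.5 FPKM. *BAD* was higher by 0.61, with 46.0 to 67.9 FPKM against 35.9 and 37.0 FPKM. In all 4 the groups did not overlap, as in 60.8% of the tested genes, of which 39.3% were called in this contrast. GC-corrected, *BCL2L1* (0.81) and *BID* (0.62) were called and *BAD* (0.18) and *BAK1* (0.30) were not.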

How the results depend on the processing

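Only 2 siNC libraries, 2 siYAP/TAZ libraries and 1 siTEAD1/2/3/4 library were available and the read depth was not known. Of the 360 comparisons of a member's value under an alternative with its value in the report, 298 kept direction and side of the threshold. The members called in siHHEX numbered 4, but 2 without the filter (limma adjusted p = 0.0580 for *MCL1* and 0.0967 for *BIK*), 1 when GC-corrected (*BID*), 0 GC-corrected with the replicate block, and 0 by the criterion of the study. In siYAP/TAZ they numbered 1, but 2 after the correction and 0 by that criterion. The fold change of the criterion was taken on log2(FPKM + 1), where *BCL2L1* was at -0.98 in siYAP/TAZ, just short of it. In FPKM its siYAP/TAZ mean was 49.9% of the siNC mean. In the direct contrast they numbered 4, but 2 after the correction, 1 with the correction and the block, and 0 by that criterion. Without the filter, the siHHEX calls of *BBC3*, *BOK*, *BNIP3L*, *HTRA2*, *XIAP* and *YAP1* and the siYAP/TAZ calls of *BBC3*, *PMAIP1*, *CASP6*, *APAF1* and *WWTR1* were also lost, at limma adjusted p between 0.0534 and 0.151, as was the direct call of *BAK1*. Leaving out 1 library gave 0 to 5, 0 to 1 and 1 to 4 members.

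Of all tested genes, 3518 were called in siHHEX, but 1907 without the filter, 2062 with the block, 718 after the correction, 165 with both and 174 by the criterion of the study. In siYAP/TAZ 884 were called, but 320 without the filter, 1759 in a fit of the compared groups and 168 by that criterion. In the direct contrast 4200 were called, but 943 after the correction, 204 with the block as well and 162 by that criterion. Leaving out 1 library gave 19 to 4839, 15 to 1317 and 1026 to 5161 genes, the lowest siHHEX and siYAP/TAZ counts without a siNC library. Equalising library medians, which lay up to 0.116 from their mean, gave 2210 higher and 1440 lower genes in siHHEX (against 1712 and 1806), 333 and 345 in siYAP/TAZ (against 657 and 227), and 2508 and 1385 in the direct contrast (against 1437 and 2763).

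The deviations of same-numbered libraries from their group means had correlations between -0.0704 and 0.0215. In siNC and siYAP/TAZ the deviations of the libraries mirror each other. Those in siHHEX and siYAP/TAZ can also hold differences between siRNAs. These correlations therefore cannot decide whether the numbers pair libraries. No other library has the number of siHHEX 3, so with the block that library added nothing to the siHHEX and direct estimates. With the block, the siHHEX call of *MCL1* (limma adjusted p = 0.0504) and the direct call of *BAK1* (limma adjusted p = 0.0690) were lost. The siHHEX calls of *BOK* (limma adjusted p = 0.0758), *HTRA2* (0.0839) and *BNIP3L* (0.0541) were lost as well. When siHHEX 3 was left out without the block, these calls of *MCL1* and *BAK1* were kept and those of *BOK*, *HTRA2* and *BNIP3L* were lost. With the block, *BCL2L1* (-0.0017), *BAK1* (-0.0062) and *BCL2L11* (-0.10) in siHHEX and *BCL2L2* (-0.033) in the direct contrast changed sign, all uncalled. These values equal those without siHHEX 3. The correction turned *BCL2L1* (-0.25), *BAK1* (-0.19), *BAX* (-0.37), *BCL2L12* (-0.30) and *BNIP3* (0.18) in siHHEX, and *MCL1* (0.19) and *BIK* (-0.17) in the direct contrast. With the block as well, they were -0.22, -0.29, -0.38, -0.31, 0.14, 0.18 and -0.19, and *BCL2L2* was -0.014. Median scaling turned *BNIP3* in siHHEX (0.032) and *MCL1* in the direct contrast (0.048). Leaving out 1 library gave ranges across 0 only for values that were not called, in siHHEX *BCL2L1* (-0.048 to 0.069), *BAK1* (-0.0062 to 0.25), *BCL2L11* (-0.10 to 0.23) and *BNIP3* (-0.093 to 0.020), in siYAP/TAZ *BID* (-0.16 to 0.014), *BOK* (-0.27 to 0.18) and *BNIP3* (-0.066 to 0.048), and in the direct contrast *BCL2L2* (-0.033 to 0.13), *MCL1* (-0.33 to 0.071) and *BIK* (-0.18 to 0.47).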
